A study of Mus musculus with 42 samples.

Results

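Nucleolar ribosome biogenesis factors were examined in the livers of ChemR23 knockout (KO) and wild type (WT) mice. The set holds 51 genes out of 19732 gene names listed in the 6 tables of the series. They were chosen by name for their place in the nucleolar steps of ribosome assembly, with earlier results of these data known. All 51 were listed in each of the 6 tables, and all 51 passed the filter on low values (a mean normalized count of at least 5) in each, with a lowest mean of 42.7.

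Ribosomes are assembled largely in the nucleolus. RNA polymerase I transcribes the ribosomal RNA precursor, small nucleolar ribonucleoproteins (snoRNPs) modify it, the UTP-A and UTP-B complexes and their partners build the small-subunit processome on it, and a separate set of factors matures the large subunit. In the liver, demand for this pathway is known to follow nutrition and growth.

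Male C57BL/6J mice with a ChemR23 gene disrupted by genome editing, and their WT littermates, were studied in 6 groups of 7 mice each. ChemR23 is a receptor for the lipid mediator resolvin E1 (RvE1). WT lean and KO lean mice ate a control diet with 10% of calories from fat, WT obese and KO obese mice ate a high fat diet with 60%, both from 6 weeks of age for 15 weeks, and these 4 groups were injected with the ethanol vehicle. WT obese+RvE1 and KO obese+RvE1 mice ate the high fat diet and were injected intraperitoneally with 300 ng of RvE1 on 4 days, and livers were taken on day 5 after a fast of at least 4 hours. The disrupted gene was not restricted to the liver by any stated means, and each library was made from whole liver.

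Depth ranged from 15960120 to 43755273 reads on listed genes, with a median of 24253532. Cmklr1, the gene of ChemR23, had a normalized count of 9.72 to 22.6 in KO lean mice and 40.8 to 114 in WT lean mice, so no KO lean library overlapped the WT lean range. The number that opens each mouse label is shared by several mice of 1 group (for example 9L and 9RL), and what it marks is not given in the sources used here. Because nearly every number lies within 1 group, whatever it marks cannot be told apart from the group, and results are given with and without it. The 7 genes of the hepatocyte list were detected in every table, and none of them was called between WT lean and KO lean mice.

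Promoter windows were available in RefSeq (GRCm38.p6, 250 bases before to 50 bases after the start) for 42 of the 51 members, 47 windows in all. The E-box CACGTG, which reads the same on both strands and is known as a binding motif of MYC and related factors, was in 9 of these 47 windows (19.1%), and in 7.15% of all 32851 windows. CCGGAAG, searched on both strands as an ETS-type motif, was in 17 of the 47 (36.2%) and in 8.86% of all windows, and GGGCGG was in 33 (70.2%) and in 35.7%. A match is a description of the letters only. The 32851 windows were not limited to genes tested in these livers, so the shares are not matched for expression. TATAAA was in 3 of the 47 (6.38%) against 13.6% of all windows, CCAAT was in 18 (38.3%) against 37.4%, and GCGCATGC was in none against 2.71%. Of the members with the E-box, Utp20, Tsr1 and Rrn3 were called in at least 1 comparison. Nop2, Pes1, Nol11, Imp4, Utp18 and Wdr43 also hold it and were called in none. Members without the E-box were called too: Nop58 and Gnl3 lack it and were each called in 3 comparisons, and Utp20 in 2. A link between the E-box and the calls was not tested. The windows of Utp20, Tsr1, Rrn3 and Nop2 are shown, with the E-box marked in capitals.
Utp20, chr10:88826765-88827064, minus strand: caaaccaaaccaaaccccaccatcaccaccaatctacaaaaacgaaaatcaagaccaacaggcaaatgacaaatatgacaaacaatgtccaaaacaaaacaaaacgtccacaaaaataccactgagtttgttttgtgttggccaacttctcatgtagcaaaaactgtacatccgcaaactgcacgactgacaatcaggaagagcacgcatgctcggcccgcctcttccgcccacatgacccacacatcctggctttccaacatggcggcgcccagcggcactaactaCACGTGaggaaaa
Tsr1, chr11:74897830-74898129, plus strand: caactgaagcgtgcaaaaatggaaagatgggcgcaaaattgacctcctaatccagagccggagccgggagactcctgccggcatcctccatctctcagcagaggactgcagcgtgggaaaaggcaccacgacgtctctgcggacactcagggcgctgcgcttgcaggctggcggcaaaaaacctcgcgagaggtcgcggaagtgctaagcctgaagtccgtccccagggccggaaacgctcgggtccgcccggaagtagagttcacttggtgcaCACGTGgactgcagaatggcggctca
Rrn3, chr16:13780449-13780748, plus strand: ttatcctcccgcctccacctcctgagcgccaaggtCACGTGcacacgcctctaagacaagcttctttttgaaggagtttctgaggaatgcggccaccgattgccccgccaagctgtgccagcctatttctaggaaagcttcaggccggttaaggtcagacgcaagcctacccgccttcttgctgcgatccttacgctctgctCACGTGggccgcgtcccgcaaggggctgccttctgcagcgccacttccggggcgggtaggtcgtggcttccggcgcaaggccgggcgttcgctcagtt
Nop2, chr6:125131633-125131932, plus strand: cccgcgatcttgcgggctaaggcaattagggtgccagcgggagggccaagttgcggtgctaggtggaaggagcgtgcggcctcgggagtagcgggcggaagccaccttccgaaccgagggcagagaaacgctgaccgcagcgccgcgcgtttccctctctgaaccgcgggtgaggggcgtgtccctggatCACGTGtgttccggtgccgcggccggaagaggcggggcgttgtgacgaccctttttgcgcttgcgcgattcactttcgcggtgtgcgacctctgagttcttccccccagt
The site began at position 288 of the Utp20 window, 275 of the Tsr1 window and 191 of the Nop2 window, and the Rrn3 window held 2 copies, the first at position 36.

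The first question was how loss of ChemR23 bears on these factors in lean mice. In KO lean livers 18 of the 51 members were lower and 1 was higher than in WT lean livers at an adjusted p under 0.1 (limma, Benjamini-Hochberg over all genes tested). With the label number as a random block, at an estimated correlation of 0.22 between mice that share a number, 0 members were called, and of all genes 2 were higher and 1 lower. Of all 13031 genes tested, 8.3% were lower and 8.0% were higher by the same rule. The median log2 fold change of the members was -0.30, against 0.00 for all genes, and 40 of the 51 had a negative value. With a fold change above 1.5 as well, 7 members were called (6 lower, 1 higher), against 6.65% of all genes in either direction.

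Nop58 had the smallest adjusted p among the members. This core protein of the box C/D snoRNPs that guide methylation had a lowest, median and highest normalized count of 116, 212 and 236 in KO lean mice and 266, 319 and 457 in WT lean mice. The groups did not overlap. Nop58 was lower by a log2 fold change of -0.82 ± 0.17 (SE, n = 7 and 7, limma adjusted p = 0.031). Its partner Fbl, the methyltransferase of the same particle, was lower at -0.44 ± 0.16 (limma adjusted p = 0.083), while Nop56 stood at -0.30 and was not called (limma adjusted p = 0.14).

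The box H/ACA snoRNPs, which guide pseudouridylation, split. Gar1 had counts of 31.3, 61.3 and 68.4 in KO lean mice and 63.4, 85.7 and 97.2 in WT lean mice, and was lower by -0.70 ± 0.19 (limma adjusted p = 0.046). Nop10, the smallest protein of the same particle, ran from 1084 to 2203 in KO lean mice and from 792 to 1163 in WT lean mice. It was the single member called higher, at 0.60 ± 0.17 (limma adjusted p = 0.048). The pseudouridine synthase Dkc1 stood at 0.05 and Nhp2 at 0.02, neither called.

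All 3 members of the RNA polymerase I machinery were called lower. The counts of Polr1a, the largest subunit, were 176, 289 and 370 in KO lean mice and 361, 422 and 523 in WT lean mice, with overlap limited to the edge of the ranges. Polr1a was lower by -0.66 ± 0.15 (limma adjusted p = 0.035). The second subunit Polr1b was lower by -0.41 and the initiation factor Rrn3 by -0.44, with limma adjusted p-values of 0.060 and 0.059.

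Of the 4 abundant nucleolar proteins, 3 were called lower. The phosphoprotein Nolc1, a chaperone of snoRNPs, had counts of 313, 363 and 490 in KO lean mice and 428, 622 and 899 in WT lean mice. It was lower by -0.73 ± 0.16 on the log2 scale (limma adjusted p = 0.034). The helicase Ddx21 ran from 642 to 913 in KO lean mice and from 930 to 1292 in WT lean mice, without overlap. Nucleolin (Ncl) was lower by -0.49 and Ddx21 by -0.41, and nucleophosmin (Npm1) stood at -0.22 and was not called.

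Among small-subunit factors, 1 of 5 UTP-A members (Utp15), 1 of 5 UTP-B members (Pwp2) and 4 of 14 others (Utp20, Bms1, Nop14, Tsr1) were called lower and none higher. Utp20, a large scaffold of the processome, was lower by -0.61 ± 0.17 and the GTPase Bms1 by -0.60 ± 0.18. Heatr1, a UTP-A protein also tied to RNA polymerase I transcription, stood at -0.03. Among 13 large-subunit factors, Gnl3, Rrs1 and Noc3l were called lower. Gnl3 (nucleostemin, a GTPase) ran from 218 to 317 in KO lean mice and from 331 to 519 in WT lean mice, and was lower by -0.55 ± 0.12 (limma adjusted p = 0.034). Bop1 and Pes1, partners in 1 large-subunit complex, stood at 0.05 and 0.14, and the methyltransferase Nop2 at -0.10, none of them called. Nop58, Gnl3 and Ddx21 were the 3 members (5.88%) whose groups did not overlap with KO lean lower, a pattern seen in 0.422% of all genes.

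**Figure D1:**
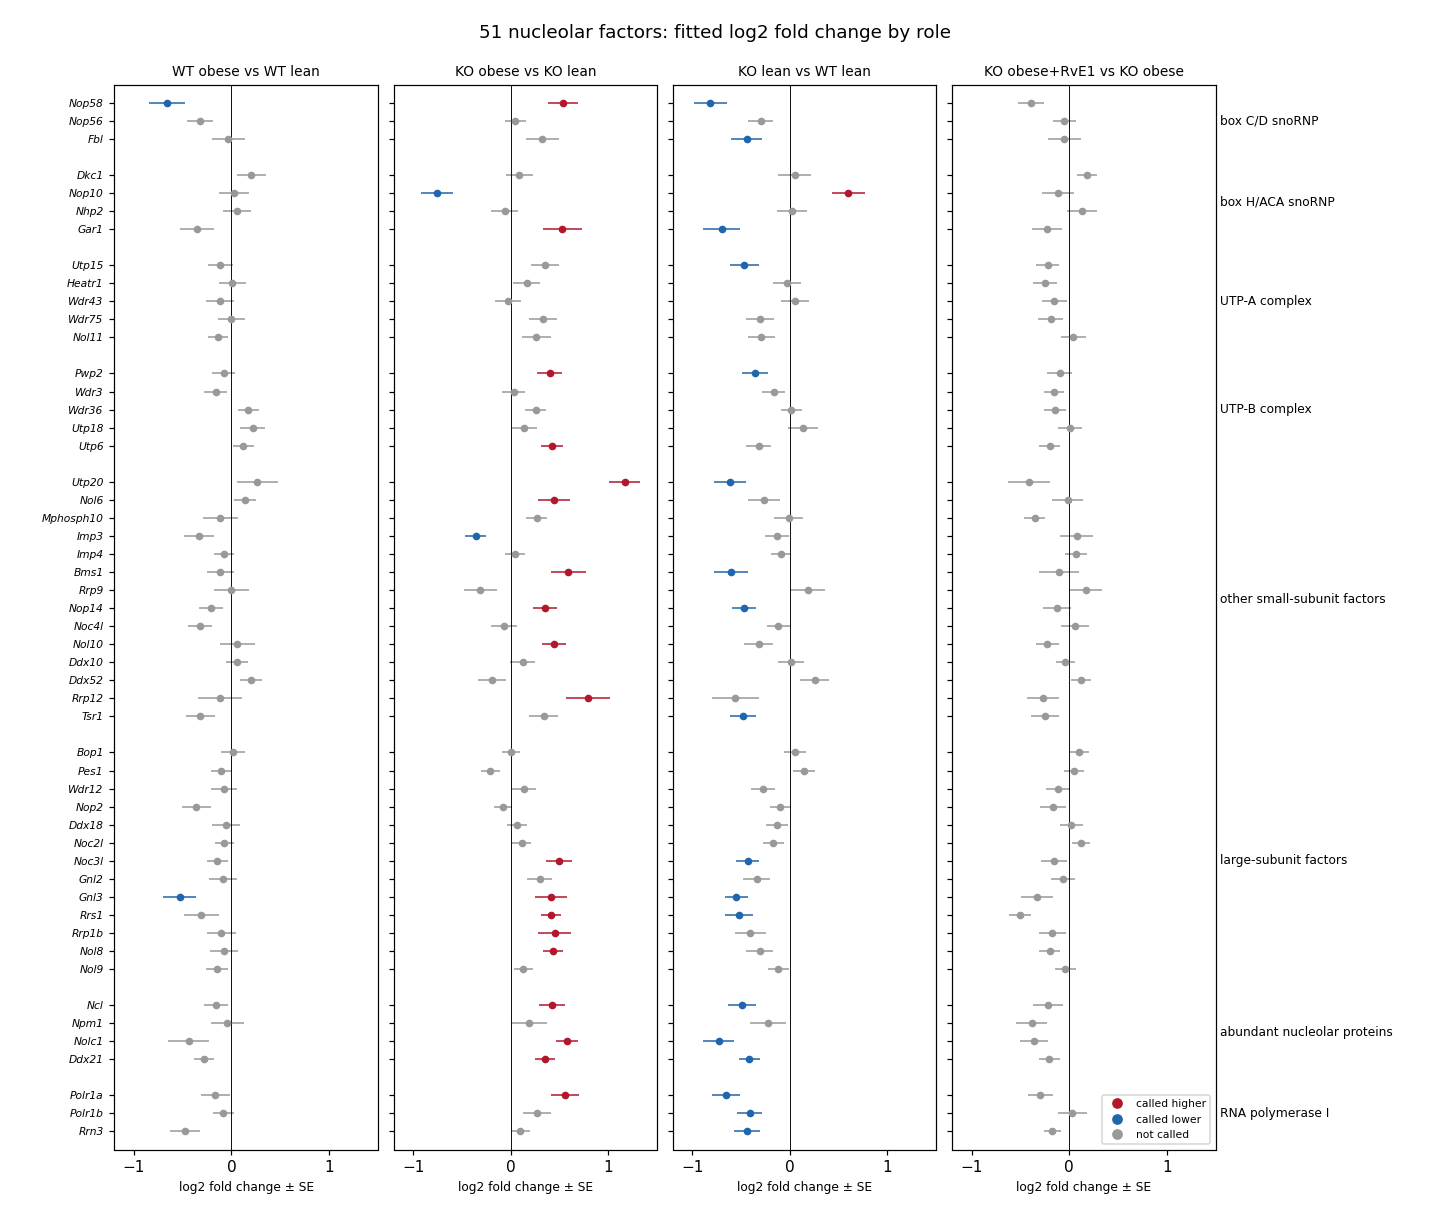
Fitted log2 fold change (horizontal axis, points with SE bars) of each of the 51 members, ordered by role, in 4 comparisons of 7 mice with 7 mice. Red points were called higher and blue points lower at a limma adjusted p under 0.1, and grey points were not called: 18 blue points and 1 red point stand in the KO lean vs WT lean panel, and 19 red and 2 blue in the KO obese vs KO lean panel.

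The count for KO lean against WT lean mice depended on which mice were kept. Without WT lean replicate 2 it was 10 members (4.76% of all genes), without WT lean replicate 5 it was 8 (4.39%), and without KO lean replicate 6 it was 10 (4.62%), and in each of these fits Nop10 was no longer called. Leaving out the mice of label number 9, 21 or 26 together gave 0 members, with 15, 32 and 8 genes called of all 13031. With the random block the members' median remained at -0.30. Over the 14 fits that each left out 1 mouse, the call of Fbl was lost in 9, of Polr1b in 6, of Rrn3, Ncl and Bms1 in 4, of Nop10 and Rrs1 in 3 and of Utp20 and Noc3l in 1. Nop58, Gnl3, Nolc1, Polr1a, Ddx21, Nop14 and Gar1 were called in all 14. When libraries were scaled to equal totals instead, the median of all genes moved to -0.12, all genes split into 392 higher and 1753 lower (1042 and 1081 with the deposited scaling), and the members into 1 higher and 21 lower with a median of -0.42.

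The second question was how the high fat diet bears on these factors in KO mice. In KO obese livers 19 of the 51 members were higher and 2 were lower than in KO lean livers, where 12.0% of all 14213 genes were higher and 12.1% lower. With the label number as a random block, at an estimated correlation of 0.24, 6 members were called (5 higher, 1 lower) and 7.44% of all genes. The median log2 fold change of the members was 0.26, against -0.00 for all genes, and 42 members had a positive value. With a fold change above 1.5 as well, 4 members were called, against 10.4% of all genes. This comparison uses the same KO lean mice as the one with WT lean mice, so the counts in opposite directions are not independent.

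Utp20 rose most, from counts of 102, 184 and 218 in KO lean mice to 309, 365 and 518 in KO obese mice. The groups did not overlap, and the log2 fold change was 1.17 ± 0.16 (limma adjusted p = 0.0019). Other small-subunit factors called higher were Rrp12 (0.79), Bms1 (0.59), Nol6, Nol10 and Nop14, with Pwp2 and Utp6 of the UTP-B complex. Utp6 ran from 394 to 599 in KO lean mice and from 615 to 760 in KO obese mice. Utp20 and Utp6 were the 2 members (3.92%) without overlap and with KO obese higher, a pattern seen in 0.985% of all genes. No UTP-A member was called, though the smallest limma adjusted p of these 5 was 0.1001, at the edge of the threshold. Their median log2 fold change was 0.26, as was that of the 5 UTP-B members.

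Nolc1 rose from counts of 345, 400 and 538 to 526, 584 and 760, a log2 fold change of 0.58 ± 0.11 (limma adjusted p = 0.0062). Ncl rose by 0.42 and Ddx21 by 0.35, while Npm1 stood at 0.19 and was not called. Polr1a rose by 0.56 ± 0.15 (limma adjusted p = 0.022), and Polr1b (0.27) and Rrn3 (0.10) were not called. Nop58 rose by 0.54 ± 0.15 and Gar1 by 0.53 ± 0.20, while Fbl (0.33), Nop56 (0.05) and Dkc1 (0.09) were not called. The large-subunit factors called higher were Noc3l (0.50), Rrp1b, Nol8 (0.43), Gnl3 (0.41) and Rrs1 (0.41).

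The members called lower were Nop10 and Imp3, a protein of the small-subunit processome. Nop10 ran from 1193 to 2426 in KO lean mice and from 787 to 1168 in KO obese mice, without overlap, and fell by 0.75 on the log2 scale (SE 0.17, limma adjusted p = 0.011). Imp3 fell by 0.36.

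**Figure D2:**
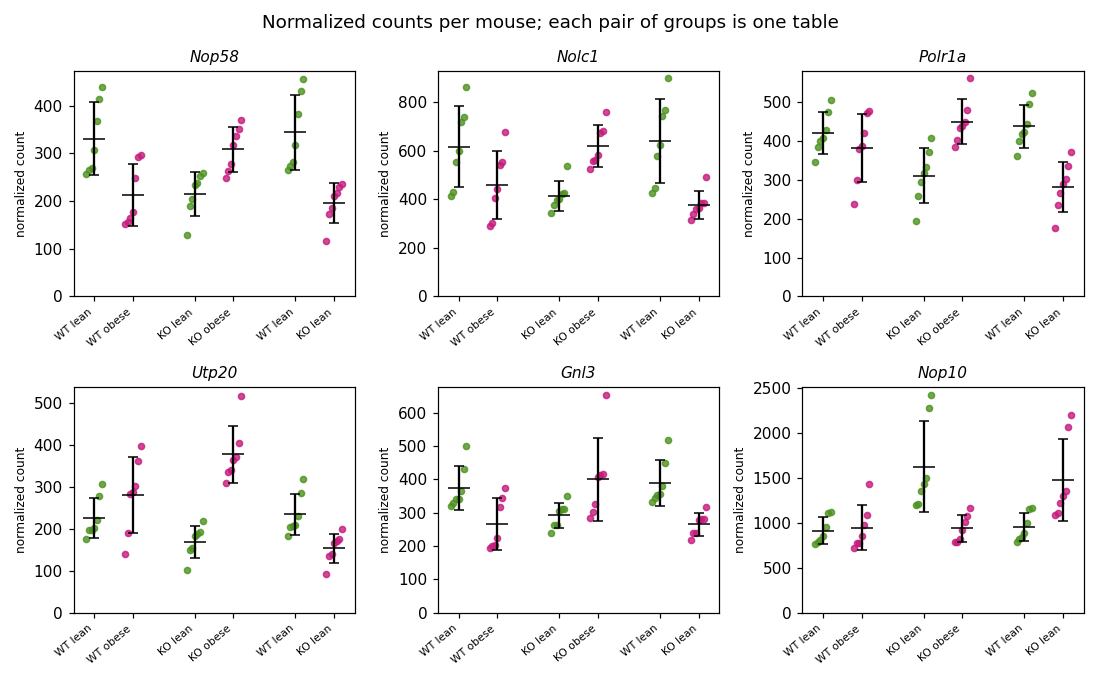
Normalized count (vertical axis, from 0) of 6 members in each mouse, with each pair of groups taken from 1 table; points are mice, bars are the mean ± SD of 7 mice. For Nop58, all KO lean mice lie below all WT lean mice, and for Utp20, all KO obese mice lie above all KO lean mice; Nop10 shows the opposite order in KO mice.

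Without the 3 mice of label number 31 the count of called members fell to 2 (3.92%), both higher, and that of all genes to 5.85%. Leaving out any single mouse gave 16 to 25 members, with 15.6% to 31.7% of all genes called. The calls of Gnl3 and Gar1 were each lost in 8 of these 14 fits. Over the 11 alternative fits, the call of Imp3 was lost in 4 and those of Gnl3 and Ncl in 3 each. The calls of Utp20, Nolc1, Rrs1 and Nop10 were lost in none of either kind. With libraries scaled to equal totals the median of all genes moved to 0.14, all genes split into 2555 higher and 628 lower (1704 and 1718 with the deposited scaling), and the members into 25 higher and 1 lower with a median of 0.41.

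In WT mice the diet comparison gave fewer calls. Of the 51 members 2 were lower and 0 higher in WT obese than in WT lean livers, against 2.61% lower and 3.65% higher of all 14012 genes. The members' median was -0.11. Nop58 had counts of 152, 178 and 296 in WT obese mice and 256, 307 and 440 in WT lean mice, and was lower by -0.66 ± 0.19 (limma adjusted p = 0.065). Gnl3 was lower by -0.53 ± 0.17 (limma adjusted p = 0.097). Both calls were lost without WT lean replicate 1, 3 or 4 or without WT obese replicate 4, 5, 6 or 7.

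The diet effect was then compared between genotypes with an interaction term. No member passed an adjusted p under 0.1 (limma), as for all but 0.00718% of all 13924 genes. At an unadjusted p under 0.05 there were 23 members (45.1%), against 18.3% of all genes, and the members' median difference (KO minus WT) was 0.35. The 3 members with the smallest p were Nop58 (difference 1.20 ± 0.25, limma adjusted p = 0.11), Ddx21 (0.63 ± 0.14) and Nolc1 (1.02 ± 0.24). DESeq2 called 15 members (29.4%) and 6.65% of all genes, where it gave an adjusted p for 9874 of the 13924. Limma with library weights called 21 members (41.2%) and 18.4% of all genes, and edgeR called 0 members and 1 gene. Without KO lean replicate 5 the limma count was 20 members (39.2%), against 13.3% of all genes, and without WT obese replicate 1 it was 17 (33.3%), against 6.92%.

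Between obese mice of the 2 genotypes no member was called, against 0.0141% of all 14162 genes. At an unadjusted p under 0.05 there were 3 members, against 2.25% of all genes. These were Mphosph10 (0.37), Ddx21 (0.22) and Nop58 (0.39), all higher in KO obese mice. The members' median was 0.08.

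The third question was whether RvE1 altered the factors in obese mice. In WT obese mice no member was called, and 0.0% of all 13085 genes were. No member had an unadjusted p under 0.05, against 6.08% of all genes, and the median was -0.00. Fold changes ran from -0.24 to 0.14.

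In KO obese mice RvE1 also gave no called member, and 0.0% of all 14207 genes were called. The members' median log2 fold change was -0.15, against -0.01 for all genes. Of the 51 members 37 had a negative value (72.5%), against 51.5% of all genes. At an unadjusted p under 0.05 there were 6 members (11.8%), against 8.3% of all genes. Rrs1, a factor of large-subunit assembly, had counts of 545, 592 and 749 with RvE1 and 723, 923 and 1073 without. Its log2 fold change was -0.50 ± 0.11 and did not pass (limma adjusted p = 0.56), and Mphosph10 (-0.35) and Nop58 (-0.39) followed. DESeq2 called 1 member, and 5 genes higher and 12 lower of all genes. The interaction of RvE1 with genotype called no member and 0.0% of all 13059 genes, with 2 members at an unadjusted p under 0.05 against 2.38% of all genes. The members' median difference (KO minus WT) in that interaction was -0.11, against -0.02 for all genes.

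**Figure D3:**
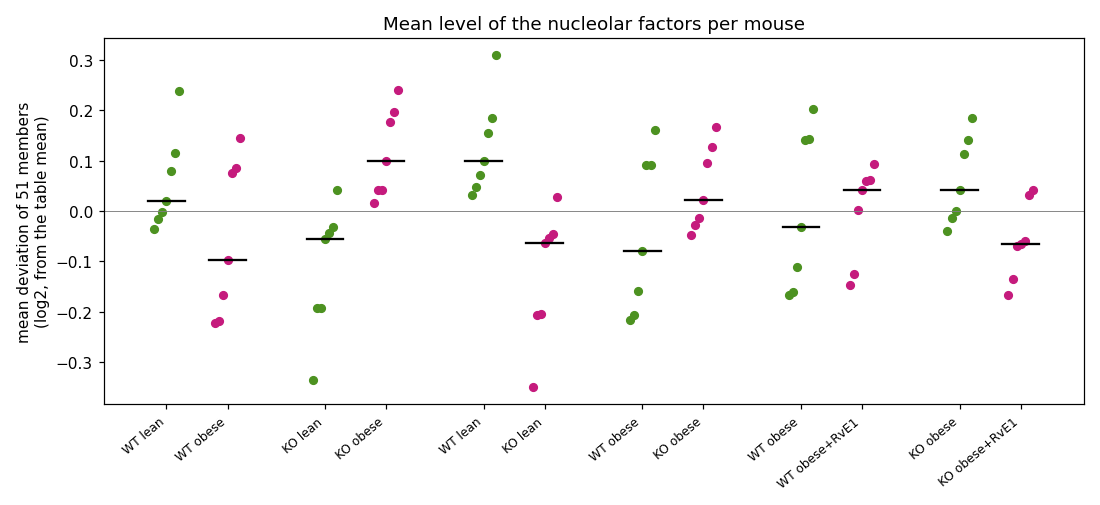
Mean deviation of the 51 members from the table mean (vertical axis, log2) in each mouse, with the groups of each table side by side; points are mice and bars are group medians. KO lean mice run from -0.35 to 0.03 and WT lean mice from 0.03 to 0.31 in their shared table.

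Averaged over the 51 members, the mice differed within groups too. In the lean table the mean deviation was lowest in KO lean replicate 4, at -0.35, and highest in WT lean replicate 1, at 0.31. In the KO diet table KO lean mice ran from -0.34 to 0.04 and KO obese mice from 0.01 to 0.24, so the ranges overlapped at the edge.

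Other genes of ribosome production did not all follow. Of 85 other ribosome biogenesis genes, 12 were lower (14.1%) and 4 higher (4.7%) in KO lean than in WT lean livers. Their median was -0.14, and of all genes 8.3% were lower and 8.0% higher. In KO obese against KO lean livers 13 of the 85 were higher (15.3%) and 9 lower (10.6%), with a median of 0.08. These shares lay near the 12.0% higher and 12.1% lower of all genes. Of 75 cytosolic ribosomal protein genes, 8 were higher (10.7%) and 3 lower (4.0%) in the lean comparison. Their median there was -0.05, and 43 were below 0. In the KO diet comparison 1 was higher (1.33%) and 27 lower (36.0%), with a median of -0.26. In WT obese against WT lean livers 0 were higher and 4 lower (5.33%), where 2.61% of all genes were lower. Their median there was -0.25, and 71 of the 75 were below 0.

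**Figure D4:**
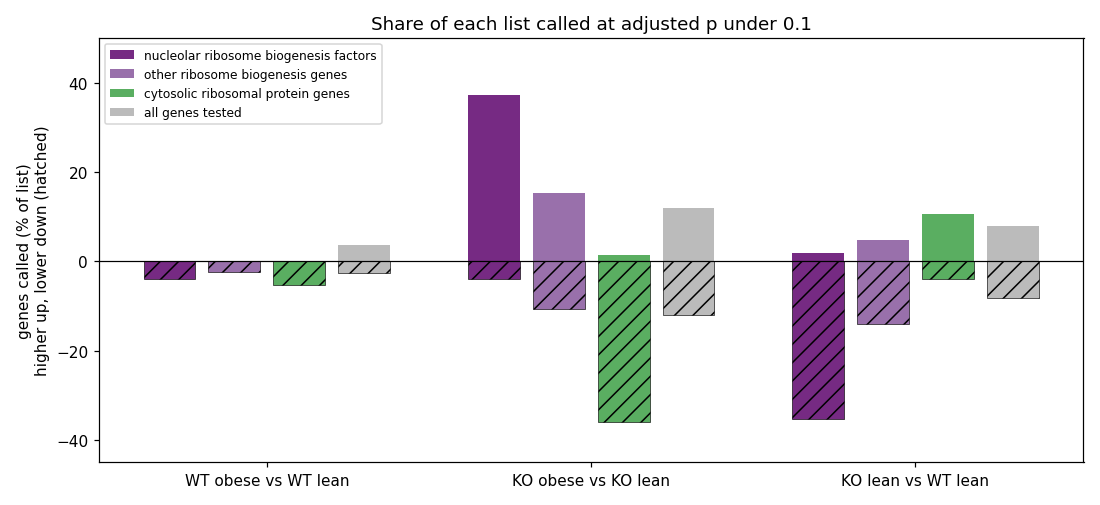
Share of each gene list called at a limma adjusted p under 0.1 (vertical axis, percent of the list, higher above 0 and lower below 0, hatched) in 3 comparisons. In KO obese vs KO lean mice 37.3% of the nucleolar factors were higher, while 27 of the 75 ribosomal protein genes were lower. Of all genes 12.0% were higher and 12.1% lower in that comparison.

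Of the 51 members, 7 (13.7%) hold annotated small nucleolar RNA genes within them (Nop58, Nop56, Ncl, Gnl3, Wdr43, Tsr1 and Dkc1), against 1.62% of 12453 tested protein-coding genes. In KO lean mice 4 of these 7 were called lower (Nop58, Gnl3, Tsr1, Ncl), with a median of -0.48, against 14 of the 44 others, with a median of -0.29. Of all genes 8.3% were lower. In the KO diet comparison 3 of the 7 were higher (median 0.34), against 16 of the 44 (median 0.26) and 12.0% of all genes. In the WT diet comparison 2 of the 7 were lower, against 0 of the 44 and 2.61% of all genes. Among all genes the lean comparison moved with transcript length: the fifth with the shortest transcripts had a median log2 fold change of 0.16 and the fifth with the longest -0.21. In the KO diet comparison these medians were -0.17 and 0.20. The members' median transcript length was 3194 bases, against 3135 for all tested genes. A separate correction used GC content and the merged length of all exons of a gene, not this transcript length. After it 19 members were lower and 1 higher in the lean comparison, with 13.5% of all genes called. In the KO diet comparison 18 were higher and 1 lower after it, with 22.0% of all genes called. Of the 25 members with the longer transcripts 13 were lower in the lean comparison (median -0.41), against 5 of the 26 others (median -0.13). In the KO diet comparison 14 of the 25 were higher (median 0.40), against 5 of the 26 (median 0.12). The members called in the other direction were among the shorter 26. They were Nop10 (1109 bases) in both comparisons and Imp3 (924 bases) in the KO diet comparison. Beyond the correction, the part of length in these values was not tested.

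Some markers of other liver cells moved with the same groups. Lists for stellate cells, cholangiocytes, erythroid cells, acinar pancreas and proliferating cells were also examined, and their values are not given here. The same holds for the lymphocyte list in the lean comparison. Of all genes, 8.0% were higher in the lean comparison and 12.1% were lower in the KO diet comparison. All 6 Kupffer cell markers were called higher in KO lean than in WT lean mice, with summed normalized counts of 5940 to 13150 against 2413 to 5692, and 5 of the 6 were called lower in KO obese than in KO lean mice. Of 6 sinusoidal endothelial markers 1 was higher in KO lean than in WT lean mice and 3 were lower in KO obese than in KO lean mice, and of 5 lymphocyte markers 4 were lower in the latter. None of the 4 adipocyte markers was listed in these tables. None of 7 hepatocyte markers was called in the lean comparison and 1 was called higher in the KO diet comparison. The part of these markers in the members' values was not tested, and in whole liver fewer cells of a type and less RNA per cell cannot be told apart.

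The members lay on 19 chromosomes of mm10, with Nop58 on chr1:59684971-59719044 (plus strand), Utp20 on chr10:88746607-88826804 (minus strand) and Nop10 on chr2:112261926-112263269 (plus strand), gene ends as annotated in GENCODE M21. Per kilobase of the longest coding transcript, the members with the highest level in WT lean livers were Imp3 (1573 normalized counts per kb) and Nop10 (857), and the lowest was Wdr12 (12.6).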

How the data were processed

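Whole-liver RNA was sequenced from 42 mice, 7 in each of 6 groups. The authors aligned paired reads to mm10 with Bowtie2, which does not split reads across introns, counted them per gene with featureCounts and normalized them with DESeq2; no source used here gives the versions, the annotation or the strand setting. The deposited tables, 1 per comparison, hold gene counts divided by size factors (signal values that are normalized counts, not whole reads), with the authors' log2 fold changes and p-values, which were not used. Every value came out as a whole read (100% within 0.1) once the size factor was removed, and no read count differed between tables. Depth was 15960120 to 43755273 reads. No sample column was left unmapped (0).

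Each table was fitted separately with limma 3.58.1 (trend) on the log2 of the normalized count plus a pseudocount of 1. Genes entered with a mean of 5 or more, with Benjamini-Hochberg adjustment over all genes tested and a threshold of 0.1. A fold change is on that scale, which understates changes of low genes. The SE is limma's. Each interaction combined 2 tables, 1 of each genotype, normalized separately. edgeR 4.0.16 and DESeq2 1.42.0 on the recovered reads, other scalings, pseudocounts and filters, library weights, a length and GC correction, a random block and left-out mice were alternatives. The scripts were tested on simulated data. Lengths and positions came from GENCODE M21 (mm10), which matched 98.7% of names, and promoters from RefSeq.

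The members and gene lists were chosen with earlier results of these data known. Genes given with values were the 10 called members in each direction with the smallest adjusted p in each comparison, the 3 with the smallest p where none was called, and 16 fixed members; other members, among them Bms1 in both main comparisons, Nhp2 in the lean one and Gar1, Ddx21 and Gnl3 in the KO diet one, were given after their values were seen. The labels do not say that mice came from separate litters, so p-values measure the spread between these mice. Npm1 and other members with pseudogene copies are uncertain. Replicates were numbered in accession order.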

Additional observations from a re-analysis of the deposited data

Results flagged for a closer look

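Nolc1 in KO lean replicate 5 stood far from the other KO lean mice. In the table shared with WT lean mice its normalized count was 490, with the next highest KO lean mouse at 386, and in the table shared with KO obese mice it was 538, with the next at 425. These are the same library scaled in different tables. Of 58 groups of 7 mice examined by Dixon's test, 2 were picked out in this way, where chance gives about 1 in 20.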

How the results depend on the processing

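The members' median kept its sign in 7 of the 8 comparisons and interactions under the 11 alternative fits; the exception was WT obese+RvE1 against WT obese, where it lay between -0.03 and 0.03. In WT obese against WT lean mice the 2 called members became 1 without the filter on low counts, with edgeR or with a fold change above 1.5, 4 with library weights, and 0 with equal totals, with an adjusted p under 0.05 or with the label number as a replicate block, alone or with the length and GC correction. Leaving out mice gave 0 to 5, with 2.24% to 9.18% of all genes called. In KO obese against KO lean mice the 21 called members became 6 with the replicate block and 4 with a fold change above 1.5. With that block and the length and GC correction they became 4. When mice were left out they became 2 to 25, with 5.85% to 31.7% of all genes called. Equal totals gave a median of 0.4109. In KO lean against WT lean mice the 19 called members became 0 with the replicate block, with or without the length and GC correction. They became 7 with a fold change above 1.5 and 12 at the stricter adjusted p of 0.05. When mice were left out they became 0 to 24, with 0.0614% to 27.2% of all genes called. Equal totals gave a median of -0.4154. DESeq2 called 1 member for RvE1 in KO obese mice, where leaving out mice gave 0 to 1. For the interaction of diet and genotype, library weights gave 21, DESeq2 15, and leaving out mice 0 to 20. The cause was not tested in any of these. What the label number marks is not given in the sources used here; the correlation estimated between mice that share it was 0.22 in the lean comparison, 0.24 in KO and 0.26 in WT mice for diet, 0.26 between obese mice, 0.37 and 0.064 for RvE1 in WT and KO mice, and 0.25 and 0.24 in the interactions of diet and RvE1 with genotype.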
